A study of Homo sapiens with 20 samples.

Results

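The RSK and MSK kinases are a family of 6 human genes. RPS6KA1, RPS6KA3, RPS6KA2 and RPS6KA6 encode RSK1, RSK2, RSK3 and RSK4, and RPS6KA5 and RPS6KA4 encode MSK1 and MSK2. The genes were taken by symbol. All 6 were found among the 55093 genes of the table on the compound BCI, the 55093 of the table on the compound BI-D1870 and the 34213 of the table on persistent cells.

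RSKs and MSKs are serine/threonine kinases that carry a pair of kinase domains in one chain. ERK activates the C-terminal domain of an RSK, PDK1 phosphorylates the N-terminal domain, and the N-terminal domain then phosphorylates proteins of translation, growth and survival control. MSKs lie in the nucleus, are activated by ERK or p38, and phosphorylate CREB and histone H3 at immediate-early genes. In myeloid cells with an active JAK2, ERK signalling is one of the branches below the kinase.

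RNA was sequenced from HEL, a human erythroleukaemia line that carries the JAK2 V617F allele, in 20 libraries of 10 groups with 2 libraries each. Cells received 1 µM BCI, an inhibitor of the ERK phosphatase DUSP6 and its relative DUSP1, or DMSO as the solvent, and were collected after 4 h or 48 h. In a second experiment they received 10 µM BI-D1870 with 1 µM BCI (called the pair here), 10 µM BI-D1870 alone, or DMSO, for 24 h. That time is from the labels alone, since the table's columns give none. BI-D1870 is an ATP-competitive RSK inhibitor. By the labels, BCI alone at 24 h was not among the groups analysed here. The columns taken as 48 h of BCI and of DMSO are headed 24h, and the labels were followed. The third experiment compared fedratinib-persistent cells (FedP) and ruxolitinib-persistent cells (RuxP), each raised by long culture with that JAK2 inhibitor, with parental cells. The labels do not say whether the inhibitor was present at harvest or whether a persistent line was a clone. They speak of duplicates and do not say that these were separate cultures, so p-values measure the spread between these libraries, which may be technical.

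Library totals ran from 51799814 to 84452743 counts. All 14 HEL identity genes, GATA1 and TAL1 among them, were detected in every group, and their summed level was 3243 to 6980 CPM (counts scaled by TMM library size). Lymphoid markers summed to 4.91 to 28.9 CPM and markers of monocytes and granulocytes to 11.7 to 56.0 CPM. Epithelial and stromal markers summed to 268 to 1746 CPM, most of it from VIM and PECAM1. VIM ran from 123 to 1160 CPM and PECAM1 from 81.2 to 708 CPM. The other genes of that list reached at most 34.2 CPM. The parental libraries stood apart from each other. Of 10459 genes averaging 4 CPM or more, 10.0% differed over 2-fold between them, against 1.63% between the RuxP libraries and under 1% between the libraries of every other group.

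In GENCODE 29 (GRCh38), RPS6KA1 (ENSG00000117676) lies at chr1:26529761-26575030 on the plus strand and RPS6KA4 (ENSG00000162302) at chr11:64359148-64372215 on the plus strand. RPS6KA3 (ENSG00000177189) lies at chrX:20149911-20267519 and RPS6KA6 (ENSG00000072133) at chrX:84058346-84187907, both on the minus strand. RPS6KA5 (ENSG00000100784) lies at chr14:90847862-91060636 and RPS6KA2 (ENSG00000071242) at chr6:166409364-166906451, both on the minus strand. Exons of RPS6KA5 share 304 bases with DGLUCY on the opposite strand. DGLUCY had 1772 to 5519 counts per library and the strand setting is not known, so part of the RPS6KA5 counts may come from it.

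RefSeq gives 11 promoter windows for the 6 genes (GRCh38.p14), each from 250 bases before to 50 bases after a transcription start. Their GC content was 45.7 to 81.0%, against a median of 58.7% over the 35116 windows of all genes. The CRE (TGACGTCA), ETS (CCGGAAGT), STAT (TTCNNNGAA), heat shock (GAANNTTC), antioxidant (TGACNNNGC) and E-box (CACGTG) letters were searched on both strands. So was AGATAA, the core that erythroid factors such as GATA1 bind. The antioxidant letters begin like the CRE, and the STAT and heat shock letters have the same letters at their ends. The antioxidant letters occurred in 3 of the 11 windows and in 13.3% of all windows. The other 6 motifs had no match in the 11 windows, and occur in 1.85 to 10.3% of all windows. The 250 bases before the start are shown for both windows of RPS6KA1, the most abundant member and the one with the largest called changes, and for the other windows with a match. Capitals mark the antioxidant letters on either strand.
RPS6KA1 first start, chr1:26529511-26529760, plus strand: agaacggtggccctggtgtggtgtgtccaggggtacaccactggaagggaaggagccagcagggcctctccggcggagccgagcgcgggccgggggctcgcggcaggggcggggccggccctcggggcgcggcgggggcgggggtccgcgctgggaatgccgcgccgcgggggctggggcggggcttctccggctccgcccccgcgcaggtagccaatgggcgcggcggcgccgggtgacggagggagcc
RPS6KA1 second start, chr1:26542862-26543111, plus strand: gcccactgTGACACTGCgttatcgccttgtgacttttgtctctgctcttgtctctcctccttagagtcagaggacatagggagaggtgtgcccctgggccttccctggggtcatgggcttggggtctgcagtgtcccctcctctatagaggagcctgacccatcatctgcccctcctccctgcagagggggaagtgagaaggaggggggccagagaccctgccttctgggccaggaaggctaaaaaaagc
RPS6KA4, chr11:64358912-64359161, plus strand: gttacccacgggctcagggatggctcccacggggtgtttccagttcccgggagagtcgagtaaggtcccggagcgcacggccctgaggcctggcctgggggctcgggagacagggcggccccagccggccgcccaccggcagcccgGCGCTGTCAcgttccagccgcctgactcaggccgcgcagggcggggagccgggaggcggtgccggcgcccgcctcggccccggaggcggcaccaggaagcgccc
RPS6KA6, chrX:84188200-84188449, minus strand: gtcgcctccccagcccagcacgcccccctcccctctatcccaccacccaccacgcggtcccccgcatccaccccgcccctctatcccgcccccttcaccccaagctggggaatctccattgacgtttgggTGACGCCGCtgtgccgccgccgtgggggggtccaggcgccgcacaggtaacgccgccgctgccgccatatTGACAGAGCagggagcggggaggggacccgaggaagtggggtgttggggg

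The window of the first RPS6KA1 start held 44 CG pairs and that of its second start 4. The RPS6KA4 window held 38 and the RPS6KA6 window 27, against a median of 14 over all windows. RPS6KA6, with a CG-rich window, was at or near 0 counts in these cells.

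RPS6KA1 was the main family transcript in HEL cells. Levels of different genes were compared as CPM per kilobase of merged exon length (RPKM). RPS6KA1 ranged from 15.2 to 64.6 RPKM, was the highest member in all 20 libraries, and made up 47.9 to 73.5% of the summed RPKM of the 6 genes. RPS6KA4 ranged from 4.48 to 21.8 RPKM, RPS6KA3 from 5.56 to 11.7 RPKM and RPS6KA5 from 0.256 to 0.663 RPKM. RPS6KA4 stood above RPS6KA3 in 18 of 20 libraries by merged exon length. By coding length RPS6KA3 stood above RPS6KA4 in 18 of 20. The order of these neighbours thus depended on the length used in most libraries, but not in all. By the longest coding sequence RPS6KA1 was again the highest in all 20 libraries, with 42.8 to 70.7% of the sum, and RPS6KA5 reached 2.98 to 7.71 RPKM.

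**Figure D1:**
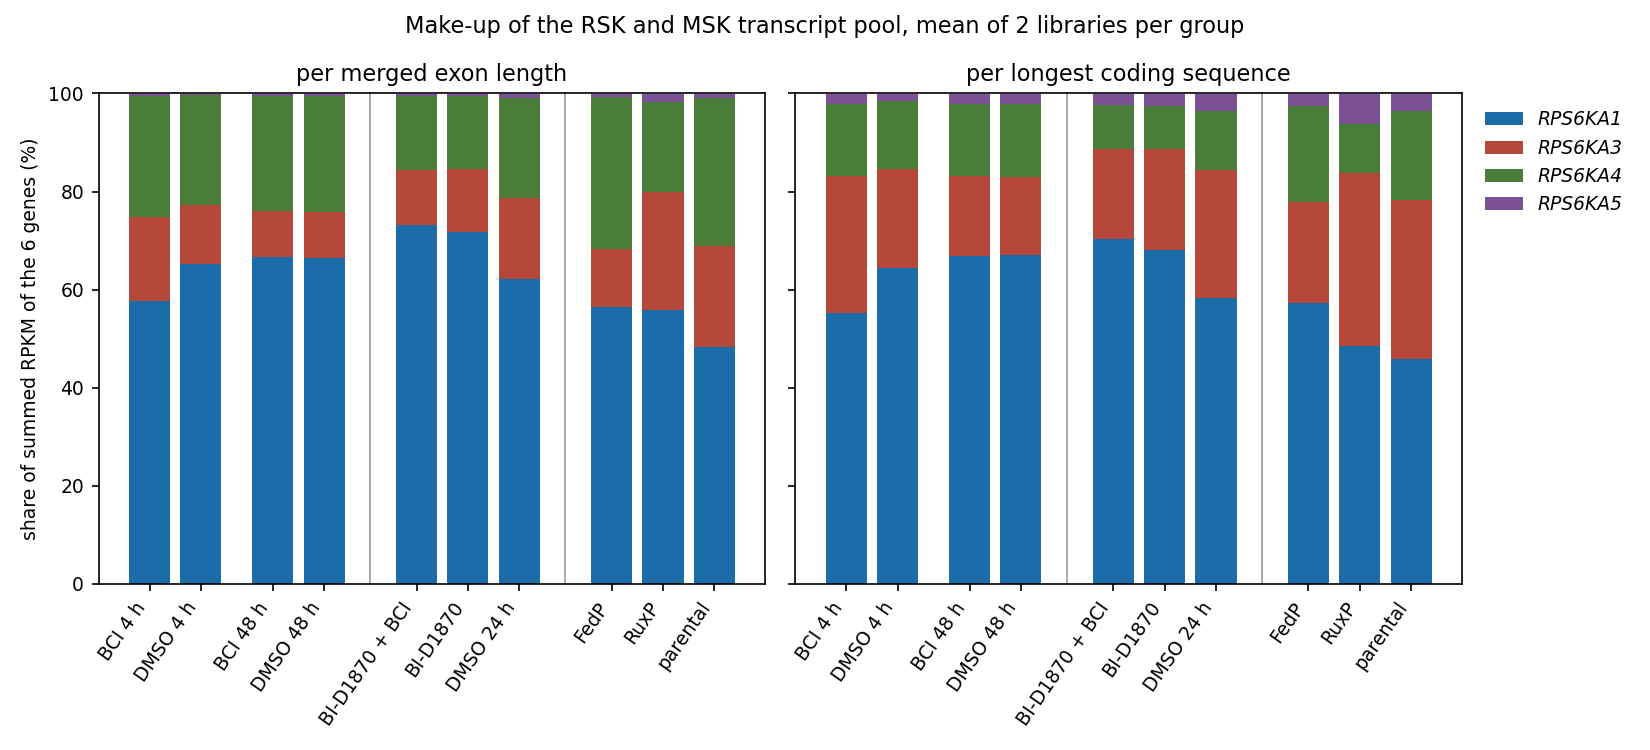
Share of the summed RPKM of the 6 genes in each group, in percent, by merged exon length and by longest coding length. RPS6KA1, RPS6KA3, RPS6KA4 and RPS6KA5 are drawn. RPS6KA1 takes the largest share in every group on both scales. RPS6KA4 and RPS6KA3 change places between the scales in every group but RuxP. There RPS6KA3 is above RPS6KA4 on both, at 24.1 against 18.4% and 35.3 against 10.0%.

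RPS6KA6 and RPS6KA2 were near or below detection. RPS6KA6 had 0 counts in 16 libraries, 1 count in 3 libraries and 3 counts in 1 library treated with BI-D1870 and BCI. A count of 0 allows a level of up to 0.0351 to 0.0604 CPM in these libraries, by counting error only. RPS6KA2 had at most 67 counts, or 0.783 CPM. It had 37 and 33 counts in FedP libraries and 0 and 26 in RuxP libraries, against 6 and 10 in parental libraries. RPS6KA6 passed the low-count filter in no table and RPS6KA2 did not pass it in the BI-D1870 table, so 5, 4 and 5 members were tested in the BCI, BI-D1870 and persistent tables.

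Under BI-D1870, RPS6KA1 rose and RPS6KA3, RPS6KA4 and RPS6KA5 fell by edgeR's quasi-likelihood test with Benjamini-Hochberg adjustment over all genes (adjusted p under 0.05). All 4 tested members passed, where 47.1% of all 21328 tested genes did. Among all genes 22.8% rose and 24.3% fell. DESeq2 called 2 of the 4, RPS6KA1 and RPS6KA4, and 9076 of all genes, against 10045 with edgeR.

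RPS6KA1 (RSK1) had 354 and 348 CPM under BI-D1870, against 251 and 264 CPM under DMSO. Both BI-D1870 libraries were above both DMSO libraries. The share of all genes whose groups did not overlap was counted only for FedP against RuxP. Its mean was 351 ± 4.49 CPM under BI-D1870 and 257 ± 9.32 CPM under DMSO (SD, n = 2 each), a log2 fold change of 0.45 (SE 0.0393, 95% interval 0.36 to 0.53, adjusted p = 1.2e-08). In bulk RNA a change in the cells that make a transcript and a change in RNA per cell cannot be told apart.

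RPS6KA4 (MSK2) had 46.6 and 46.8 CPM under BI-D1870, against 54.2 and 55.7 CPM under DMSO. The groups did not overlap (the share of all genes doing so was not counted), and the fold change was -0.23 on the log2 scale (SE 0.0515, adjusted p = 8.3e-04). RPS6KA3 (RSK2) had 108 and 103 CPM under BI-D1870, against 116 and 114 CPM under DMSO. RPS6KA5 (MSK1) had 13.2 and 14.5 CPM under BI-D1870, against 14.9 and 18.6 CPM under DMSO. Both again lay lower in both BI-D1870 libraries, with log2 fold changes of -0.12 for RPS6KA3 (SE 0.0440, adjusted p = 0.026) and -0.28 for RPS6KA5 (SE 0.0997, adjusted p = 0.029). The RPS6KA3 call was lost without the second BI-D1870 library (-0.05, adjusted p = 0.51), either DMSO library (0.12 and 0.055) or the second library of the pair (0.13). It was also lost with DESeq2 (0.068), DESeq2 size factors (0.058), no low-count filter (0.13) and only the groups compared (0.09). The RPS6KA5 call was lost without the second DMSO library (-0.11, adjusted p = 0.47), either BI-D1870 library (0.21 and 0.071) or the second library of the pair (0.065), and with DESeq2 (0.062).

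BI-D1870 with BCI gave the same directions against the same DMSO libraries, with 4 of 4 tested members called where 46.8% of all genes were (22.6% rose and 24.3% fell). RPS6KA1 had 372 and 380 CPM under the pair, a log2 fold change of 0.55 (SE 0.0392, adjusted p = 6.2e-10). RPS6KA3 had 97.3 and 96.8 CPM, with -0.25 (SE 0.0439, adjusted p = 9.8e-05). Each of the 4 tested members had both libraries of the pair outside its DMSO range. The share of all genes doing so was not counted. RPS6KA4 had 50.1 and 49.7 CPM under the pair, with -0.14 (adjusted p = 0.031), and RPS6KA5 had 13.8 and 13.2 CPM, with -0.31 (adjusted p = 0.014). The RPS6KA4 call was lost without either DMSO library (adjusted p = 0.062 and 0.16), the second BI-D1870 library (0.11) or either library of the pair (0.11 and 0.28), and with DESeq2 (0.07), no low-count filter (0.16) and only the groups compared (0.067). The RPS6KA5 call was lost without the second DMSO library (-0.14, adjusted p = 0.31) or the second library of the pair (0.14).

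With BCI added to BI-D1870 none of the 4 tested members passed against BI-D1870 alone, where 4.71% of all genes did. RPS6KA1 differed by 0.10 (95% interval 0.02 to 0.18, adjusted p = 0.18) and RPS6KA3 by -0.12 (95% interval -0.21 to -0.03, adjusted p = 0.14) on the log2 scale. RPS6KA4 differed by 0.10 (adjusted p = 0.38) and RPS6KA5 by -0.04 (adjusted p = 0.92). RPS6KA1 took 73.2% of the family's summed RPKM under the pair and 71.8% under BI-D1870, against 62.1% under DMSO. The 14 identity genes summed to 4698 to 5081 CPM under the pair and 5701 to 5794 CPM under BI-D1870, against 6796 to 6980 CPM under DMSO. The 8 epithelial and stromal markers summed to 278 to 279 CPM under the pair and 268 to 275 CPM under BI-D1870, against 461 to 494 CPM under DMSO. The 6 lymphoid markers summed to 5.78 to 6.90 CPM under the pair and 5.12 to 5.15 CPM under BI-D1870, against 20.1 to 21.3 CPM under DMSO, with MS4A1 and CD3D at 0 counts in every group. The part of these lists in the results was not tested.

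**Figure D2:**
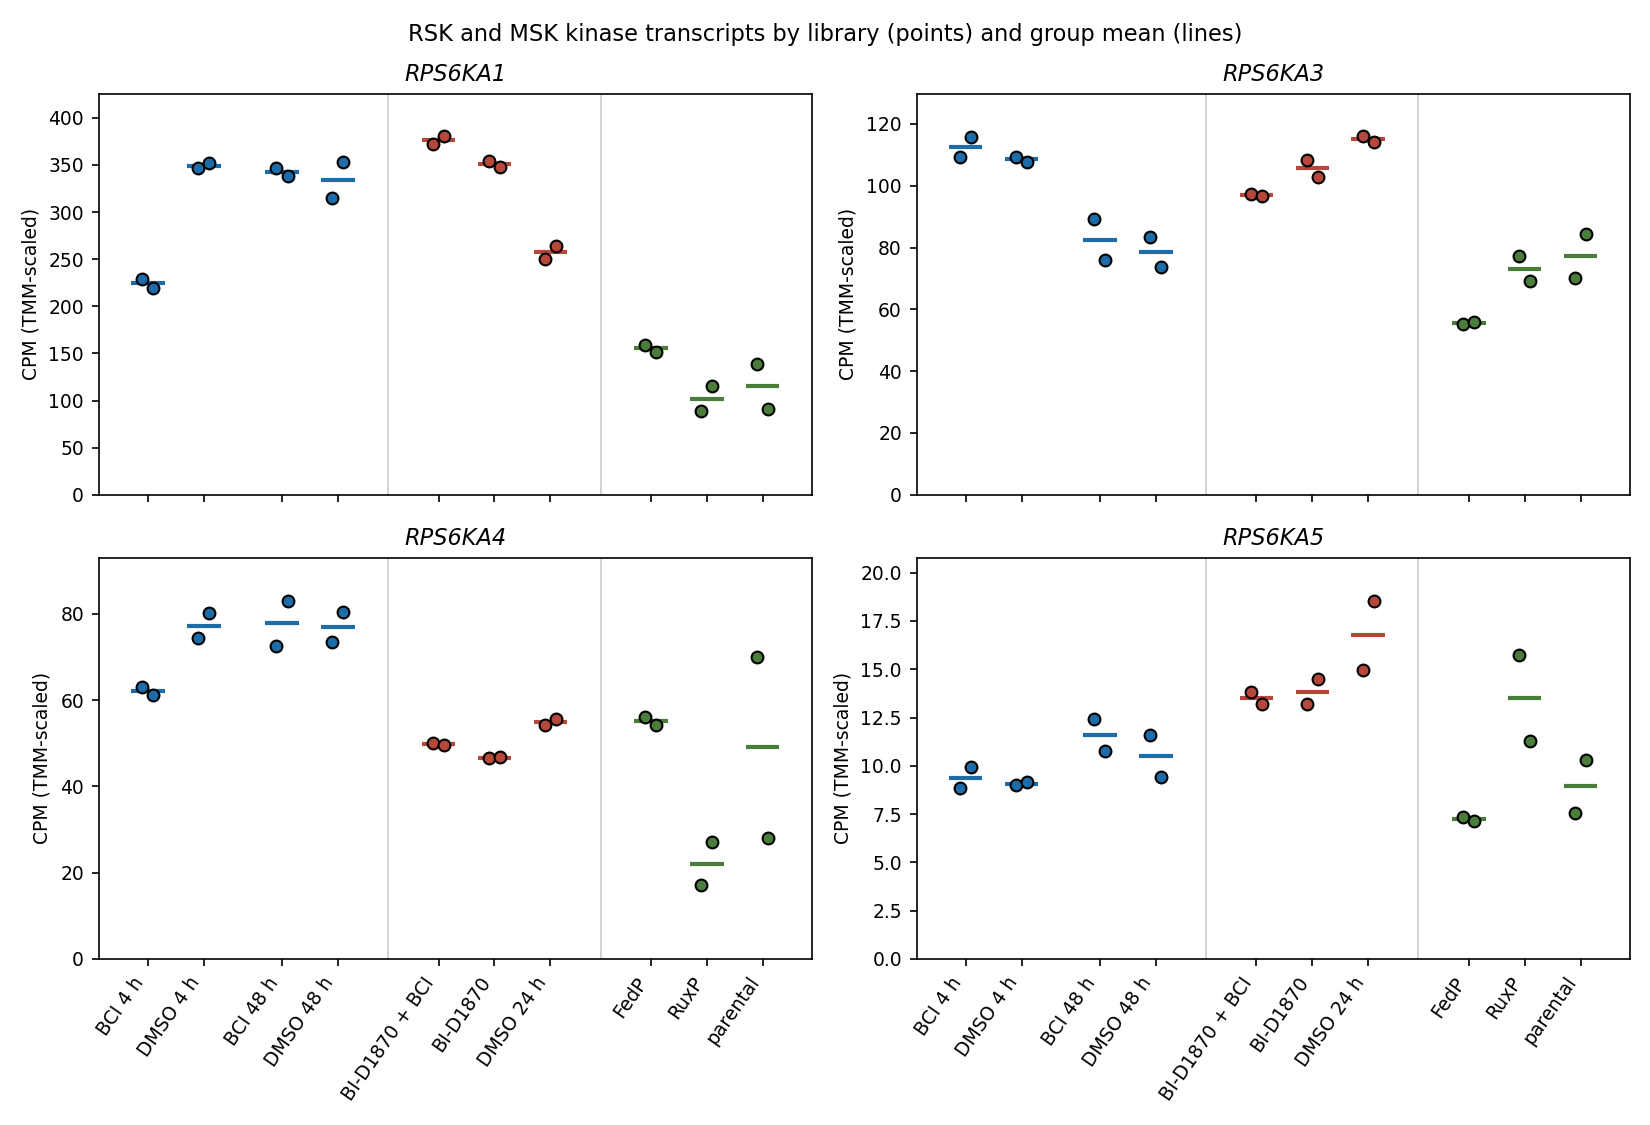
CPM of RPS6KA1, RPS6KA3, RPS6KA4 and RPS6KA5 in each of the 20 libraries (points) with the group means (lines). RPS6KA1 lies at 220 and 229 CPM under 4 h of BCI, below its DMSO libraries, and at 348 to 380 CPM in the 4 libraries with BI-D1870, above theirs.

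RPS6KA1 fell under 4 h of BCI, and it was the 1 tested member of 5 to pass, where 10.7% of all 21908 tested genes did and 5.94% fell. RPS6KA1 had 229 and 220 CPM under BCI, against 347 and 352 CPM under DMSO. Both BCI libraries lay below both DMSO libraries, and the share of all genes whose groups did not overlap was not counted. Its mean was 224 ± 6.55 CPM under BCI and 349 ± 3.70 CPM under DMSO (SD, n = 2 each), with a log2 fold change of -0.64 (SE 0.0778, 95% interval -0.81 to -0.46, adjusted p = 0.0012). Its share of the family's summed RPKM was 57.7% under BCI and 65.3% under DMSO. HEL identity genes summed to 5939 to 6078 CPM under BCI and 6433 to 6635 CPM under DMSO. Markers of monocytes and granulocytes summed to 27.6 to 30.4 CPM under BCI and 24.9 to 26.5 CPM under DMSO. Lymphoid markers overlapped, at 16.0 to 17.9 CPM under BCI and 16.3 to 18.9 CPM under DMSO. Epithelial and stromal markers summed to 311.2 to 315.7 CPM under BCI and 301.2 to 311.0 CPM under DMSO. The part of these lists in the result was not tested.

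RPS6KA4 had 63.0 and 61.2 CPM under 4 h of BCI, against 74.3 and 80.3 CPM under DMSO. The groups did not overlap, and the share of all genes doing so was not counted. The log2 fold change of -0.32 (SE 0.0931) missed the threshold at adjusted p = 0.062. It passed with DESeq2 (adjusted p = 0.033), with a replicate block (0.034), with only the 4 h groups fitted (5.3e-04), with no low-count filter (0.05, under the threshold before rounding) and without the first (0.035) or second (0.033) 48 h DMSO library. RPS6KA3 had 109 and 116 CPM under BCI, against 109 and 108 CPM under DMSO. RPS6KA5 had 8.85 and 9.93 CPM under BCI, against 9.0 and 9.16 CPM under DMSO. Both genes overlapped between the groups, with log2 fold changes of 0.05 and adjusted p of 0.82 for RPS6KA3 and 0.89 for RPS6KA5. RPS6KA2 differed by -1.01 (95% interval -2.50 to 0.48, adjusted p = 0.41) on 6 and 9 counts under BCI and 12 and 14 under DMSO.

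At 48 h no member passed, and edgeR called 0 of all genes (0%), with 316 at an unadjusted p under 0.05. DESeq2 and limma-voom also called 0. RPS6KA1 had 347 and 338 CPM under BCI, against 314 and 353 CPM under DMSO. The groups overlapped, and the log2 fold change was 0.04 (95% interval -0.14 to 0.21, adjusted p = 1). The response of RPS6KA1 differed between the times by 0.68 (48 h minus 4 h, SE 0.110, 95% interval 0.43 to 0.92, adjusted p = 0.013), a test that 3.46% of all genes passed, 2.08% upwards. The difference stayed between 0.64 and 0.70 when a 4 h library was left out, with adjusted p of 0.092 or 0.12 without a DMSO library and 0.084 or 0.095 without a BCI library. For RPS6KA4 it was 0.33 (adjusted p = 0.23).

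RPS6KA3 differed between the DMSO groups. It had 83.4 and 73.7 CPM after 48 h of DMSO, against 109 and 108 CPM after 4 h. It fell by 0.47 on the log2 scale (SE 0.0988, adjusted p = 0.0077), in a comparison that called 26.6% of all genes and 13.2% as lower, and lost the call without the first (adjusted p = 0.068) or second (0.060) 4 h DMSO library. Between these groups HEL identity genes summed to 5861 to 6178 CPM after 48 h and 6433 to 6635 CPM after 4 h. Epithelial and stromal markers, mostly VIM and PECAM1, summed to 338 to 398 CPM after 48 h and 301 to 311 CPM after 4 h. Lymphoid markers summed to 20.4 to 26.2 CPM after 48 h and 16.3 to 18.9 CPM after 4 h. Markers of monocytes and granulocytes overlapped, at 24.7 to 25.3 CPM after 48 h and 24.9 to 26.5 CPM after 4 h. The part of these lists was not tested. RPS6KA1 differed by -0.07 over that time (adjusted p = 0.58). The fall of RPS6KA1 under BCI and its rise under BI-D1870 come from tables with their own controls and times, and the difference between them was not tested.

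**Figure D3:**
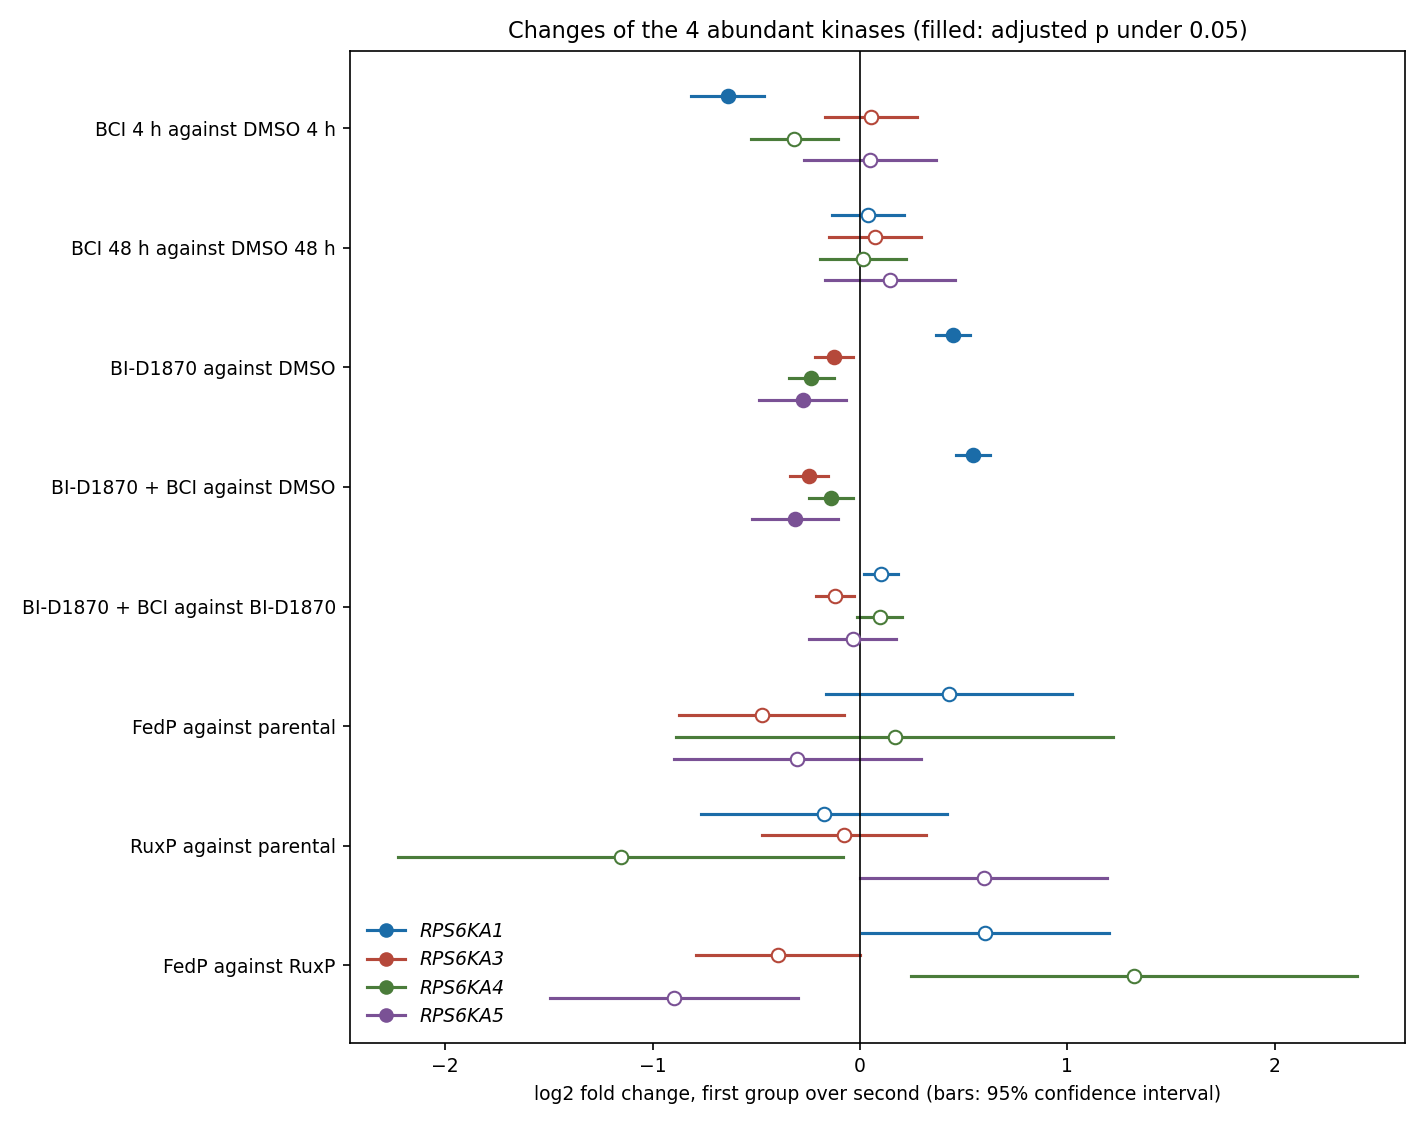
Log2 fold change of the 4 members tested in all 3 tables, with 95% intervals, in 8 comparisons. Filled points passed at adjusted p under 0.05. RPS6KA1 stands at -0.64 for BCI at 4 h, at 0.45 for BI-D1870 and at 0.55 for the pair.

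By edgeR's quasi-likelihood test no member passed in the persistent cells, where 6.44% of 15924 genes passed for RuxP against parental cells, 6.63% for FedP against parental cells and 1.39% for FedP against RuxP. RPS6KA4 had 56.0 and 54.3 CPM in FedP cells and 17.0 and 27.1 CPM in RuxP cells, against 70.1 and 28.1 CPM in parental cells. The FedP libraries lay between the parental ones, and both RuxP libraries lay below them. Its log2 fold change was -1.15 for RuxP against parental cells (SE 0.442, adjusted p = 0.18) and 0.17 for FedP against parental cells (adjusted p = 0.84). The RuxP value rested on the parental libraries. It was -1.68 (adjusted p = 0.018) without the second one, in a fit that called 4157 genes against 1026 with all libraries, and -0.33 (adjusted p = 0.48) without the first. It also passed with DESeq2 (0.035), which called 2469 genes, and with no low-count filter (0.044), which called 1836.

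RPS6KA1 had 159 and 151 CPM in FedP cells and 89.3 and 115 CPM in RuxP cells, against 139 and 91.1 CPM in parental cells. Only the FedP libraries lay clear of the parental range, at a log2 fold change of 0.43 (95% interval -0.16 to 1.02, adjusted p = 0.33). RPS6KA3 had 55.1 and 56.0 CPM in FedP cells and 77.1 and 69.2 CPM in RuxP cells, against 70.1 and 84.4 CPM in parental cells. FedP lay below both other groups, at -0.47 against parental cells (adjusted p = 0.15). Without the first parental library RPS6KA1 (0.77, adjusted p = 0.027), RPS6KA3 (-0.60, 0.024) and RPS6KA4 (0.97, 0.049) passed for FedP against parental cells, in a fit that called 5293 genes against 1055 with all libraries. Without the second parental library none of the 3 passed, at 0.16 for RPS6KA1 (adjusted p = 0.72), -0.33 for RPS6KA3 (0.2) and -0.34 for RPS6KA4 (0.58). RPS6KA5 had 7.33 and 7.16 CPM in FedP cells and 15.8 and 11.3 CPM in RuxP cells, against 7.55 and 10.3 CPM in parental cells. Both FedP libraries lay below and both RuxP libraries above the parental ones, and neither line passed (adjusted p = 0.49 for FedP, 0.21 for RuxP). The share of all genes that lay clear of the parental libraries was not counted.

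Between the persistent lines all 4 abundant members had groups that did not overlap, as did 76% of all tested genes. FedP minus RuxP was 0.60 for RPS6KA1 (adjusted p = 0.15), -0.40 for RPS6KA3 (0.16), 1.32 for RPS6KA4 (0.12) and -0.90 for RPS6KA5 (0.10) on the log2 scale. All 4 passed when the parental libraries were left out of the fit (adjusted p of 0.031, 0.033, 0.015 and 0.024 in the same order), and also without the first parental library (0.029, 0.036, 0.013 and 0.022) or the second (0.037, 0.044, 0.018 and 0.024). These fits called 5783, 5672 and 5332 genes, against 222 with all libraries. With DESeq2, which called 3680 genes, RPS6KA4 (0.012) and RPS6KA5 (0.019) passed, and they also passed with no low-count filter (0.019 and 0.035), which called 2886. A replicate block left 0 genes called, these members included. The members also did not pass when a FedP or RuxP library was left out. RPS6KA4 took 31.0% of the family's summed RPKM in FedP cells and 18.4% in RuxP cells, against 30.3% in parental cells. HEL identity genes summed to 4892 to 4979 CPM in FedP cells and 3243 to 3505 CPM in RuxP cells, against 5101 to 6246 CPM in parental cells. Epithelial and stromal markers summed to 1297 to 1343 CPM in FedP cells and 768 to 914 CPM in RuxP cells. Their sum was 1332 to 1746 CPM in parental cells. VIM (535 to 1160 CPM over these libraries) and PECAM1 (122 to 708 CPM) made up most of it. CDH1 and COL1A2 had 0 counts in both persistent lines. Markers of monocytes and granulocytes summed to 52.1 to 52.6 CPM in FedP cells and 44.1 to 48.0 CPM in RuxP cells. In parental cells they summed to 51.5 to 56.0 CPM. Lymphoid markers summed to 13.2 to 13.7 CPM in FedP cells and 4.91 to 7.33 CPM in RuxP cells, against 9.83 to 11.9 CPM in parental cells. The part of these lists in the results was not tested.

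The lists of genes around the kinases are set against all genes, of which 22.8% rose and 24.3% fell under BI-D1870. Of 18 genes listed as CREB-linked immediate-early genes, 9 rose and 2 fell under BI-D1870, with a median log2 fold change of 0.72 against -0.01 over all genes. Action of MSKs on these genes was not tested. BTG2, an antiproliferative gene, averaged 214 ± 0.145 CPM under BI-D1870 and 65.1 ± 1.43 CPM under DMSO (SD, n = 2 each), a rise of 1.72. FOSB, an AP-1 subunit, rose by 2.29 and FOS by 2.56, both from low levels of 0.973 and 0.206 CPM under DMSO. ATF3, a stress-induced transcription factor, rose by 1.73. The 2 that fell, named after their values were seen, were TRIB1 (-1.29), a pseudokinase, and NR4A1 (-0.64), a nuclear receptor. Under the pair the counts were again 9 and 2, with a median of 0.49, and EGR1 rose by 1.49. FOS, FOSB, BTG2 and ATF3 kept their BI-D1870 calls with each library left out in turn.

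Of 28 RSK substrates 10 rose and 12 fell under BI-D1870, with a median of 0.00 (all genes -0.01). DEPTOR, an mTOR inhibitor, averaged 0.446 CPM under BI-D1870 and 2.59 CPM under DMSO (log2 fold change -2.55, SE 0.307, adjusted p = 8.8e-07). ETV1, an ETS factor, fell by 1.60 on the log2 scale and RRN3, a factor for RNA polymerase I, by 0.84. Of 9 MSK substrates 3 rose and 2 fell, and H3-3B, which encodes a histone H3, rose by 0.63. ETV1 is on both substrate lists. Under the pair 10 RSK substrates rose and 13 fell, and 3 MSK substrates rose and 2 fell.

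The lists of upstream and neighbouring kinases also held genes in both directions, beside 22.8% up and 24.3% down over all genes. In the RAS-RAF-MEK-ERK cascade 9 of 20 rose and 6 fell under BI-D1870, with PEA15, which binds ERK, at 0.81 and MAPK3, which encodes ERK1, at -0.59. In the p38 cascade 4 of 11 tested genes rose and 3 fell. Of 11 genes for PDK1 and related AGC kinases 5 rose and 3 fell. PDPK1, which encodes PDK1, averaged 41.2 ± 1.14 CPM under BI-D1870 and 21.8 ± 2.15 CPM under DMSO (SD, n = 2 each), a log2 rise of 0.92. Of 5 other MAPK-activated kinases 3 rose and 1 fell, with MKNK2 at 0.77 and MKNK1 at 0.52, kinases of the translation factor eIF4E. Under the pair 9 cascade genes rose and 7 fell, 3 p38 genes rose and 5 fell, 6 PDK1 and AGC genes rose and 4 fell, and 4 other MAPK-activated kinases rose and 1 fell.

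**Figure D4:**
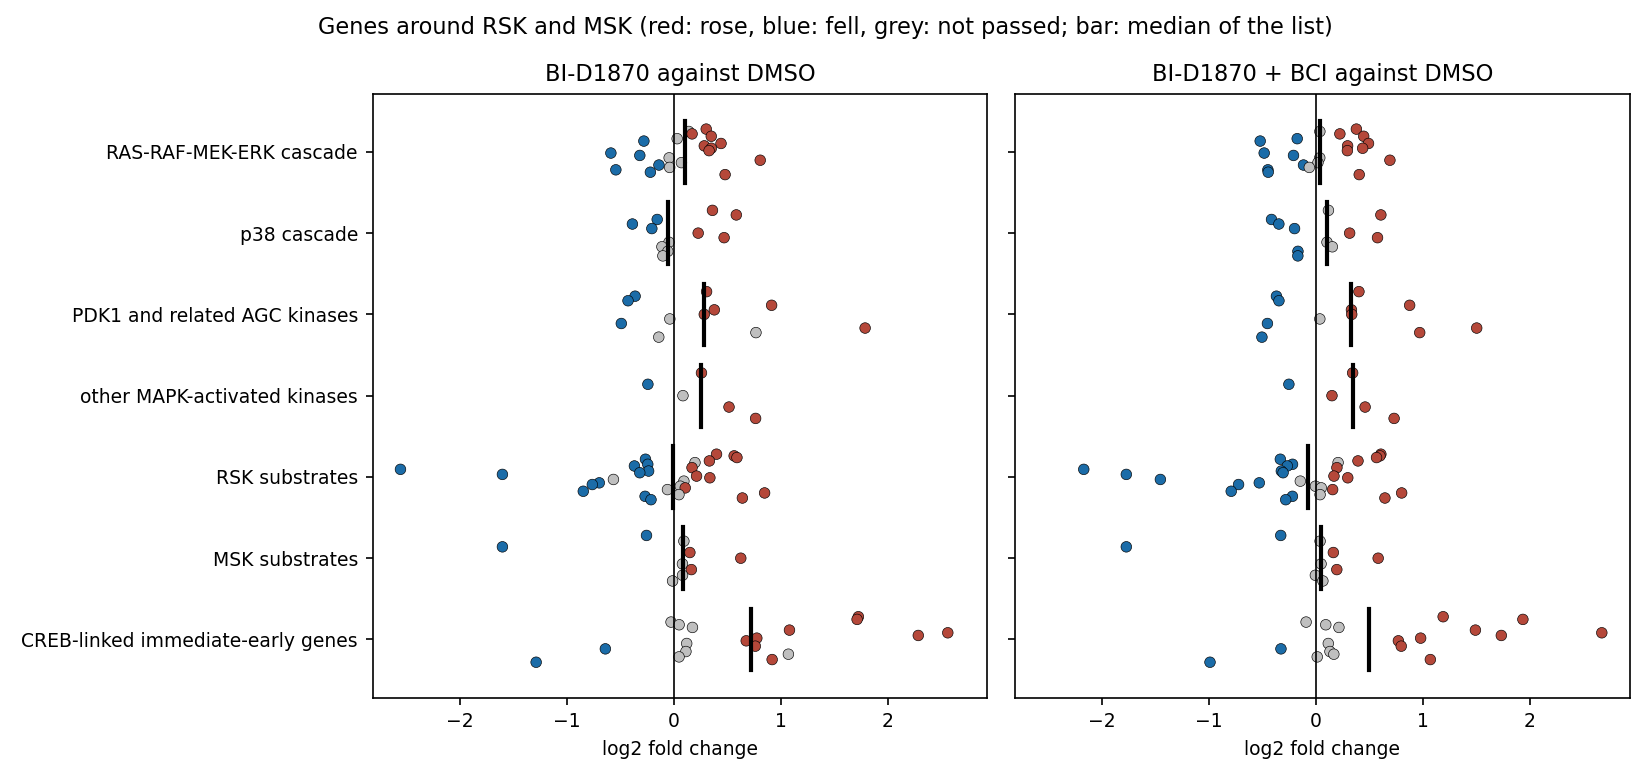
Log2 fold change of each listed gene under BI-D1870 with BCI and under BI-D1870 alone, each against DMSO, by list, with list medians. The CREB-linked genes have the highest median under BI-D1870, at 0.72, and the RSK substrates spread to both sides of 0.

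With BCI on top of BI-D1870, 4.71% of all genes passed. EGR1 rose by 0.41, TRIB1 by 0.29 and BTG2 by 0.22 against BI-D1870 alone, and the calls depended on single libraries. Without the second BI-D1870 library the adjusted p was 0.082 for EGR1 and 0.061 for BTG2, without the first it was 0.069 for TRIB1, and without the first library of the pair 0.066 for EGR1. In the other lists 3 cascade genes and 2 p38 genes fell and 1 RSK substrate rose. At 4 h of BCI, where 10.7% of all genes passed, 4 of 18 CREB-linked genes rose and 4 fell. DUSP1, an inducible MAP kinase phosphatase, averaged 21.2 ± 3.98 CPM under BCI and 8.36 ± 0.263 CPM under DMSO (SD, n = 2 each), a rise of 1.34, and JUNB, an AP-1 subunit, fell by 1.04 on the log2 scale. Of 28 RSK substrates 1 rose and 4 fell, among them EEF2K (-0.61), the kinase of elongation factor 2. Of 9 MSK substrates 3 fell, among them STAT3 (-0.56), which averaged 439 ± 0.642 CPM under BCI and 648 ± 1.92 CPM under DMSO (SD, n = 2 each). In the cascade and PDK1 lists 1 gene each rose, and in the p38 and other MAPK-activated lists 1 gene each fell. The BCI calls of DUSP1, JUNB, EEF2K and STAT3 held with each library left out in turn. Calls of ATF1, ATF3, BCL2L11, CDC25A, DAPK1, MAP2K3, MAPKAPK3, NR4A2, RELA, RPS6KC1 and SOS2 were each lost without some library.

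In persistent cells 3 of 28 RSK substrates rose and 1 fell in each line, where 6.63% of all genes passed for FedP and 6.44% for RuxP. The one that fell was NFKBIA, which encodes an NF-kappaB inhibitor, by 1.08 in FedP cells and 0.91 in RuxP cells on the log2 scale. It lost its FedP call without either FedP library (adjusted p = 0.28 and 0.27) and its RuxP call without any 1 of 5 libraries (0.076 to 0.15). ETV1 averaged 1.89 ± 0.297 CPM in FedP cells and 2.88 ± 1.13 CPM in RuxP cells, against 0.201 ± 0.0106 CPM in parental cells (SD, n = 2 each), log2 rises of 3.21 and 3.83. DEPTOR averaged 14.8 ± 0.821 CPM in FedP cells and 18.3 ± 5.23 CPM in RuxP cells, against 3.78 ± 0.846 CPM in parental cells (SD, n = 2 each). ETV1 lost its FedP call without the first (adjusted p = 0.061) or second (0.098) FedP library. DEPTOR lost its FedP call without the second FedP library (0.055) and its RuxP call without the first RuxP library (0.056). With a replicate block both lost their FedP calls (adjusted p = 0.059 for ETV1 and 0.058 for DEPTOR). With limma-voom ETV1 lost both calls (adjusted p = 0.076 for FedP and 0.056 for RuxP). Of 17 CREB-linked genes 1 rose in FedP cells, and 1 rose and 1 fell in RuxP cells. In the RAS-RAF-MEK-ERK cascade SOS1 rose by 1.25 in RuxP cells (edgeR adjusted p = 0.033) on the log2 scale. LAMTOR3 fell by 1.05 in FedP cells (0.038). Both calls were lost with some libraries left out and under some other settings. No gene of the p38, PDK1 or other MAPK-activated lists passed against parental cells. By edgeR's test no gene of any list passed between FedP and RuxP.

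The genes most like each member were taken by the mean of 3 within-table Pearson correlations, over 8, 6 and 6 libraries and 9878 genes. The libraries of a group and their depth are shared by all genes, so the values are a description. RPS6KA1 was closest to OGDH (0.98), IER2 (0.98) and ZNF696 (0.97). RPS6KA3 was closest to DYRK1A, SPCS2 and SEC63 (each 0.96). RPS6KA4 was closest to TBC1D10C (0.98), COASY (0.96) and RGS14 (0.96), and RPS6KA5 to ZGRF1 (0.92), CNTLN (0.90) and METTL18 (0.89).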

How the data were processed

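HEL cells were treated or made persistent as the labels' protocols describe. Per the submitters' processing notes, bcl2fastq, STAR 2.5.1a, GRCh38 and edgeR were used. The sources used here give no counting program, annotation release, strand setting or library kit. The authors deposited 3 tables of raw gene counts. Even values made up 59.8 to 73.1% of low counts, so both mates of a pair were probably counted, and floors would then be higher. The later BCI columns are headed 24h where the labels give 48 h, and the labels were followed. Repeated gene lines (116, 116 and 130) were dropped.

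Each table was fitted in R 4.3.3 with edgeR 4.0.16 (filterByExpr, TMM, quasi-likelihood test, all groups, no replicate block), and genes with a Benjamini-Hochberg adjusted p under 0.05 were called. Each standard error was derived from the log2 change and its F statistic. Tables were normalised separately, so no group was compared with a group of another table. Ranges over all 20 libraries pool the tables as a description only. Code was tested on simulated data. Members and lists were chosen with earlier results of these data known. Named are the 6 members, up to 4 passing genes per list with the largest change, and the 3 most alike genes per member. Alternatives were DESeq2 1.42.0, limma-voom (limma 3.58.1), DESeq2 size factors, 2 filters, halved counts, a replicate block, only the groups compared, other gene lengths (coding length chosen after seeing the data) and each library left out. Floors cover counting error only.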

Additional observations from a re-analysis of the deposited data

Results flagged for a closer look

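The response of RPS6KA1 to BCI differed between the times, by 0.68 on the log2 scale (48 h minus 4 h, SE 0.110, edgeR adjusted p = 0.013). The call was lost when any single 4 h library was left out, while the difference stayed between 0.64 and 0.70. RPS6KA1 was lower in 2 of 2 BCI libraries at 4 h, at 229 and 220 CPM, against 347 and 352 CPM under DMSO. At 48 h it had 347 and 338 CPM under BCI, against 314 and 353 CPM under DMSO, and the groups overlapped.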

How the results depend on the processing

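Over 686 member values under an alternative, 599 kept direction and side of the threshold, 28 newly passed, 29 lost the call and 30 changed sign. With BCI at 4 h the members called went up to 2 with no low-count filter, DESeq2, a replicate block or only the groups compared (1 to 2 with a library left out). For BI-D1870 4 became 2 with DESeq2, which called 9076 of all genes against 10045. RPS6KA3 also lost its call with DESeq2 size factors, no low-count filter or only the groups compared. For the pair against DMSO RPS6KA4 lost its call with DESeq2 (9019 of all genes against 9992), no low-count filter or only the groups compared. In both comparisons calls were also lost with some libraries left out. The difference between the times and the DMSO time comparison gave 0 to 1. RuxP against parental cells gave 1 with no filter or DESeq2 (0 to 1), FedP against parental cells 0 to 3, and FedP against RuxP 2 with no filter or DESeq2 and 4 with only the groups compared (0 to 4).

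No member value that passed changed sign under the alternatives run. RPS6KA4 over time in DMSO was 0.0065 with no filter, 0.0443 with the stricter filter and 0.0031 with halved counts. With the stricter filter RPS6KA4 at 48 h of BCI was -0.0042 and the time difference of RPS6KA3 -0.0259. RPS6KA2 in RuxP was -0.9974 with limma-voom. With a library left out, 48 h of BCI gave -0.0318 to 0.1221 for RPS6KA1, -0.6634 to 0.7871 for RPS6KA2, -0.0488 to 0.1933 for RPS6KA3, -0.075 to 0.1114 for RPS6KA4 and -0.0012 to 0.3129 for RPS6KA5. RPS6KA5 at 4 h gave -0.0318 to 0.1275. The time difference gave -0.1056 to 0.1369 for RPS6KA3 and -0.05 to 0.2598 for RPS6KA5. DMSO over time gave -0.149 to 0.0058 for RPS6KA1 and -0.0686 to 0.0486 for RPS6KA4. RuxP against parental cells gave -0.4583 to 0.1893 for RPS6KA1, -6.2932 to 1.5867 for RPS6KA2 and -0.18 to 0.0479 for RPS6KA3. FedP against parental cells gave -0.3414 to 0.9724 for RPS6KA4, FedP against RuxP -0.0984 to 7.7801 for RPS6KA2, and the pair against BI-D1870 -0.099 to 0.0291 for RPS6KA5. The cause was not tested. A library left alone in its group is assumed to vary like the other groups.

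Over all genes, calls for FedP against RuxP were 222, against 2886 with no filter, 3680 with DESeq2, 445 with limma-voom, 5783 with only the groups compared and 0 with the block. FedP against parental cells gave 1055, against 1818, 2573, 568 with only the groups compared and 272 with the block. RuxP gave 1026, against 1836, 2469, 419 and 324 in that order. BCI at 4 h gave 2354, against 5691 with only the groups compared. The time difference gave 757, against 1658 with no filter, 1440 with DESeq2 and 1166 with the block, and BCI at 48 h 0, against 27 with no filter. With a library left out the ranges were 0 to 5672 for FedP against RuxP, 197 to 5293 for FedP, 170 to 4157 for RuxP, 555 to 3241 for BCI at 4 h, 88 to 1705 for the time difference, 2498 to 6024 for DMSO over time and 325 to 1229 for the pair against BI-D1870. The replicate numbers are not stated to pair libraries. Deviations of same-numbered libraries correlated at 0.32 between the 48 h groups, at -0.22 between parental and RuxP cells and between -0.04 and 0.12 elsewhere. With the replicate block RPS6KA4 passed at 4 h of BCI (-0.3134).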
